A study of Mus musculus with 48 samples.

Results

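The genes of potassium, sodium and chloride channels were followed in C2C12, a mouse myoblast cell line whose cells fuse into multinucleated myotubes once serum is lowered. The members were all genes whose symbol in the array annotation began with Kcn followed by letters and a number, was Scn with a number and the letter a or b, or began with Clcn and a number. There were 102 such genes among the 18193 genes measured, read by 215 probe sets, and each was represented by its probe set of highest mean over all arrays. By symbol alone they fell into 31 voltage-gated potassium alpha subunits, 15 potassium auxiliary subunits, 15 inward rectifiers and 12 two-pore potassium channels. There were also 8 calcium- or sodium-activated potassium channels, 8 sodium alpha and 3 sodium beta subunits, and 7 chloride channels and exchangers. The last 3 were non-coding transcripts whose symbols match the pattern (Kcnq1ot1, Kcnmb4os1 and Kcnmb4os2).

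RNA was measured on 48 Affymetrix MOE430v2 arrays, 3 for each of 16 groups. Myoblasts in growth medium, DMEM with 20% fetal bovine serum, were harvested at -24 h and at 0 h. Cells moved to DMEM with 2% horse serum were harvested after 0.5, 1, 1.5, 2, 3, 6, 9, 12, 24, 48, 96 and 144 h. Cells given 50 µM cycloheximide, an inhibitor of protein synthesis, from 1 h before the change of medium were harvested at 1 h and 3 h of differentiation. All groups are one clonal line without added genes, and by the design the triplicates were grown at successive passages on separate plates. No growth-medium cells after 0 h and no cycloheximide cells at 0 h are among the groups, so effects of the new medium and of longer culture cannot be told apart.

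Values are log2 units of RMA, a method that corrects background, normalizes the arrays to one another and summarises the probes of each set. A level is such a value, and a difference is the log2 difference between group means with its standard error (SE) from limma. A gene was called changed at a Benjamini-Hochberg adjusted p under 0.05 over all 18193 genes, and n = 3 arrays in every group. Array medians lay between 4.003 and 4.16 on the 42 untreated arrays and between 4.20 and 4.24 on the 6 cycloheximide arrays. Arrays of the same group correlated at 0.9835 to 0.9958 over the 18193 genes, and the number of arrays limits the precision. All 9 muscle markers lay above 4.08, the median of all probe sets and arrays, in at least 1 group, and their mean level was 7.39 at -24 h and 11.06 at 144 h, with 7 risen and 1 fallen from 0 h to 144 h. Of the 7 neuron markers 6 did so, with a mean level of 6.43 at -24 h and 4.99 at 144 h, and Stmn2, Nefl and Tubb3 fell between 0 h and 144 h. The cardiomyocyte, leukocyte, adipocyte and endothelium lists had 1, 1, 1 and 0 such genes, and the smooth muscle and glia lists 3 of 4 and 3 of 3. The muscle and neuron lists changed over the same times as the channel genes, and their part in the results was not tested.

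Potassium channels set the resting potential of a cell and shape its return to rest after an action potential. In human myoblasts, inward rectifiers of the Kir2 group and the EAG1 channel are known to make the membrane potential more negative before the cells fuse. Adult skeletal muscle relies on a voltage-gated sodium channel for its action potential and on the chloride channel Clcn1 for a stable resting membrane. Clcn3, Clcn5, Clcn6 and Clcn7 are exchangers of chloride for protons in endosomes and lysosomes.

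The channel genes covered a narrower range than all genes together. Between the highest and the lowest of the 14 untreated group means, only Kcnn4, Kcnk13, Kcnk2, Clcn5 and Kcnmb4 differed by 1 log2 unit or more, which is 4.9% of the members against 20.1% of all genes. The median range was 0.35 for the members and 0.46 for all genes, with median within-group SDs of 0.12 and 0.14. The highest group mean lay above the median of all probe sets for 56 members (54.9%) and for 71% of all genes. The deposited values carry no detection calls, so a level below that median does not show that a transcript was absent. Probe sets differ in how strongly they bind, and levels are therefore compared within a gene only.

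Over the 12 differentiation times together, the F-test called 16 members (15.7%), against 38.2% of all genes, and with the arrays centred on housekeeping genes it called 52 members, against 56% of all genes. The 16 were the inward rectifiers Kcnj12 and Kcnj6, the two-pore channel Kcnk13, the calcium-activated channels Kcnn3 and Kcnn4, the voltage-gated subunits Kcnc2, Kcng1, Kcnh1, Kcnh2 and Kcns1, the auxiliary subunits Kcne4 and Kcnmb4, the exchangers Clcn3 and Clcn5, and the sodium channel subunits Scn10a and Scn3b. Against 0 h at single times, 31 members (30.4%) were called at least once and 43.1% of all genes were. Of these, 23 were called only as risen, 7 only as fallen, and Clcn5 in both directions. By family the called members were 4 of 7 chloride, 9 of 31 voltage-gated potassium, 4 of 15 auxiliary, 3 of 15 inward rectifier, 4 of 12 two-pore, 3 of 8 calcium- or sodium-activated, 2 of 8 sodium alpha and 2 of 3 sodium beta genes, and 0 of 3 non-coding transcripts. The other 71 members had differences from 0 h between -0.40 and 0.41.

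**Figure D1:**
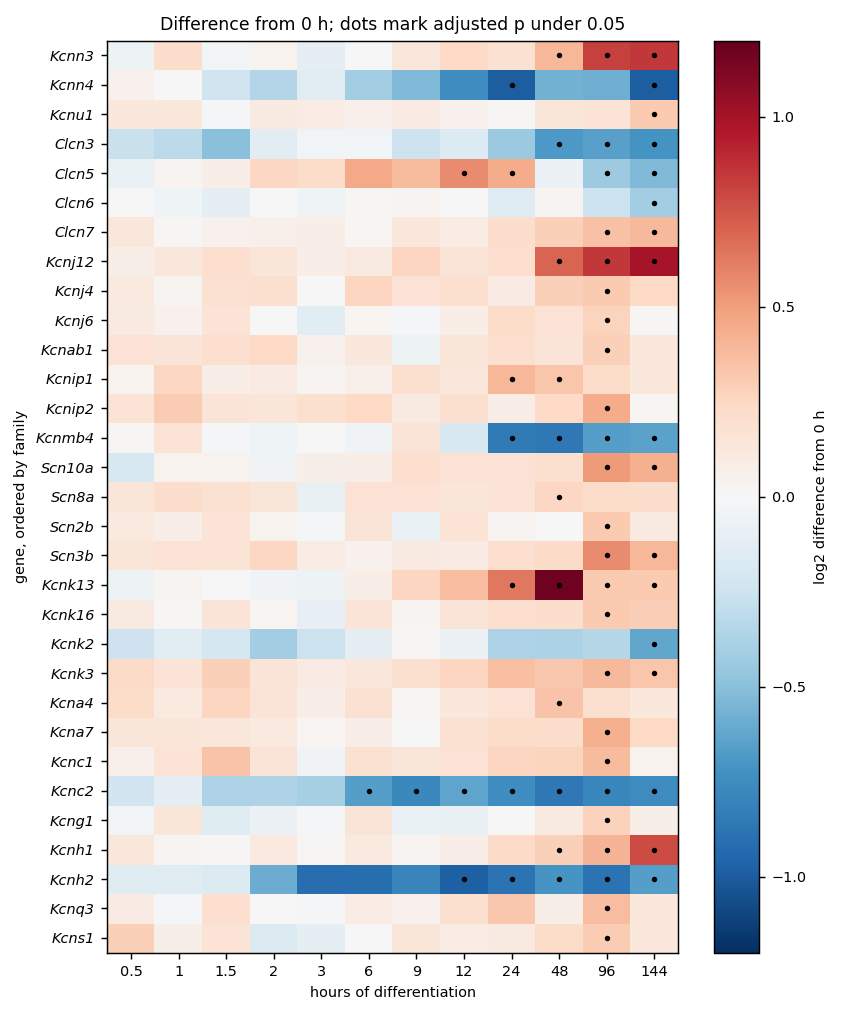
Log2 difference from 0 h (colour, red higher and blue lower) for the 31 channel genes called at 1 or more differentiation times, with hours of differentiation across and genes by family down; dots mark an adjusted p under 0.05. The dots lie almost wholly at 24 h and later, with Kcnc2 from 6 h and Kcnh2 and Clcn5 from 12 h before them.

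Few channel genes moved in the first 12 h. No member was called at 0.5, 1, 1.5, 2 or 3 h by limma, where 0.0385%, 0.192%, 0.423%, 0.517% and 0.39% of all genes were called; 2, 3, 8, 6 and 4 members had an unadjusted p under 0.05. Kcnc2 alone was called at 6 h (background 0.506%) and at 9 h (background 1.36%), in both cases as fallen. These compare with 0.357% and 0.61% of all genes that fell. At 12 h, when 1.19% of all genes had risen and 1.63% had fallen (2.82% together), Kcnc2 and Kcnh2 had fallen and Clcn5 had risen. The 3 genes called from 0.5 h to 12 h, against 3.96% of all genes, became 1 without 0 h replicate 2, 0 h replicate 3 or 12 h replicate 3.

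Later the calls grew in number. At 24 h, 3 members had risen and 4 had fallen, while 14% of all genes were called (6.56% risen, 7.42% fallen). The 48 h counts were 7 risen and 4 fallen, with a background of 26.7% (12.4% and 14.3%). By 96 h, 19 had risen and 5 had fallen, with a background of 32.6% (15.5% and 17.1%). The 144 h counts were 9 and 8, with a background of 28.4% (13.5% and 14.9%). In the same order of times the members' median differences were 0.10, 0.10, 0.16 and 0.07, and the medians over all genes were 0.05, 0.06, 0.07 and 0.04. At each of these times the share of members called, from 6.86% to 23.5%, was below the share of all genes in the values as deposited.

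The split between risen and fallen members rested on the scaling. With the arrays centred on 8 housekeeping genes, which moved the median of all genes by 0.15, 0.11, 0.17 and 0.22 at the 4 late times, 23 members were higher and 4 lower at 24 h (background 25.3%), 16 and 4 at 48 h (31.5%), 53 and 3 at 96 h (51.3%), and 49 and 2 at 144 h (48.3%). Under that centring the share of members called was below the background at 48 h and above it at the other 3 times. Every member called at 24 h or later kept its direction under that centring, under centring on array medians and after a second quantile normalization. Single arrays mattered as well. At 96 h, 11 members were called once 96 h replicate 2 was left out, and 14 once 0 h replicate 3 was. The 48 h count became 7 if either 48 h replicate 2 or 0 h replicate 1 was dropped, and the 24 h count became 4 if 24 h replicate 1 was.

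**Figure D2:**
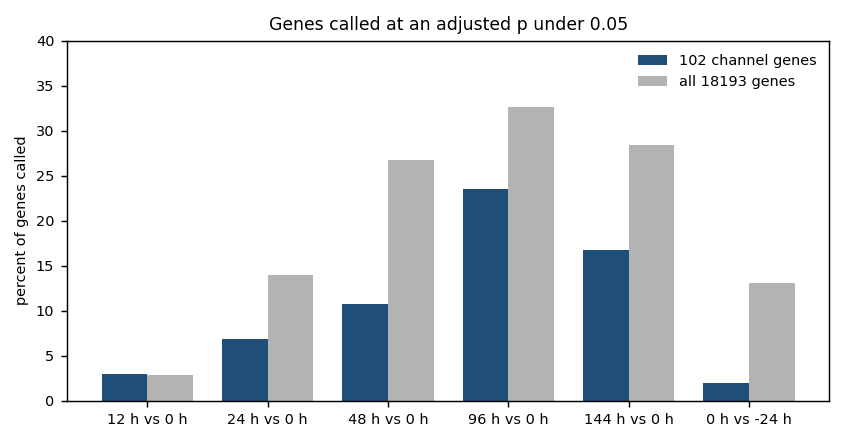
Percent of the 102 channel genes (blue) and of all 18193 genes (grey) called at an adjusted p under 0.05, for 5 differentiation times against 0 h and for 0 h against -24 h. Beyond 12 h the blue bars stand below the grey ones, with 23.5% against 32.6% at 96 h and 1.96% against 13.1% for 0 h against -24 h.

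Among the inward rectifiers, which pass potassium inward more easily than outward and hold the membrane near the potassium potential, Kcnj12 (Kir2.2) rose and Kcnj2 (Kir2.1) was not called. Kcnj12 had levels of 3.39, 3.44 and 3.27 on the 0 h arrays, 3.44, 3.65 and 3.60 at 24 h, 4.52, 3.83 and 3.84 at 48 h, 4.29, 4.11 and 4.23 at 96 h, and 4.41, 4.52 and 4.15 at 144 h. All 9 arrays from 48 h on lay above all arrays of 0 h and 24 h. Relative to 0 h the rise was 0.70 at 48 h, 0.84 by 96 h and 0.99 by 144 h (SE 0.12 each, adjusted p = 2.26e-05, 5.76e-07 and 1.87e-08), and it was called without each array in turn and under all 3 other scalings. Bulk RNA does not tell a change per cell from a change in the share of cells that carry the transcript. Kcnj2 group means of untreated cells stayed between 3.04 and 3.35. Of the subunits of the ATP-sensitive channel, Kcnj8 lay between 3.73 and 4.15 and Kcnj11 between 5.87 and 6.11, and neither was called at any differentiation time. Kcnj4 and Kcnj6 were called as risen at 96 h only, by 0.32 (SE 0.11) and 0.27 (SE 0.10), and neither was called without 96 h replicate 2 (adjusted p up to 0.189 and 0.197 over the arrays left out).

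The two-pore channels carry the background leak of potassium. Kcnk13 (THIK-1), an outward leak channel, rose to a peak at 48 h and came down again. Its 0 h arrays read 4.12, 4.17 and 4.17, the 12 h arrays 4.70, 4.47 and 4.40, the 24 h arrays 4.91, 4.78 and 4.67, the 48 h arrays 5.17, 5.37 and 5.43, the 96 h arrays 4.57, 4.54 and 4.28, and the 144 h arrays 4.55, 4.48 and 4.38. The 48 h arrays lay above every other array of untreated cells. The difference from 0 h was 0.63 (SE 0.12, adjusted p = 0.000302) at 24 h and 1.17 (SE 0.12, adjusted p = 1.46e-09) at 48 h, a 2.25-fold rise. From 48 h to 96 h it fell by 0.86 (SE 0.12, adjusted p = 1.25e-05), a comparison added after the values were seen, in which Kcnk13 was the one member called. All genes were called in 4.64% there (2.68% fallen). These 3 calls held without each array in turn and under the 3 scalings. The remaining difference at 96 h and 144 h, 0.31 and 0.32, lay at the threshold (adjusted p = 0.048 and 0.0492) and were lost without any one of 5 and of 6 arrays. A second probe set with a mean of 2.69 showed a difference of 0.09 at 48 h.

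Kcnk2 (TREK-1), a leak channel gated by membrane stretch and lipids, moved the other way. Its arrays read 5.86, 5.16 and 4.92 at -24 h, 4.86, 4.46 and 5.08 at 0 h, and 4.26, 4.27 and 4.01 at 144 h. The 144 h arrays lay below all arrays of both growth-medium groups. Kcnk2 fell by 0.62 (SE 0.18, adjusted p = 0.0077) from 0 h to 144 h and by 1.13 from -24 h, and the first of these was lost without 0 h replicate 3 (adjusted p = 0.0787) and with housekeeping centring (0.0633). Kcnk3 (TASK-1), an acid-sensitive leak channel, rose by 0.39 and 0.33 (SE 0.13 each) at 96 h and 144 h, and Kcnk16 by 0.31 (SE 0.12) at 96 h. Over the leave-one-out fits the adjusted p of these 3 calls reached 0.11, 0.252 and 0.258. The other 8 two-pore genes were not called at any differentiation time.

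**Figure D3:**
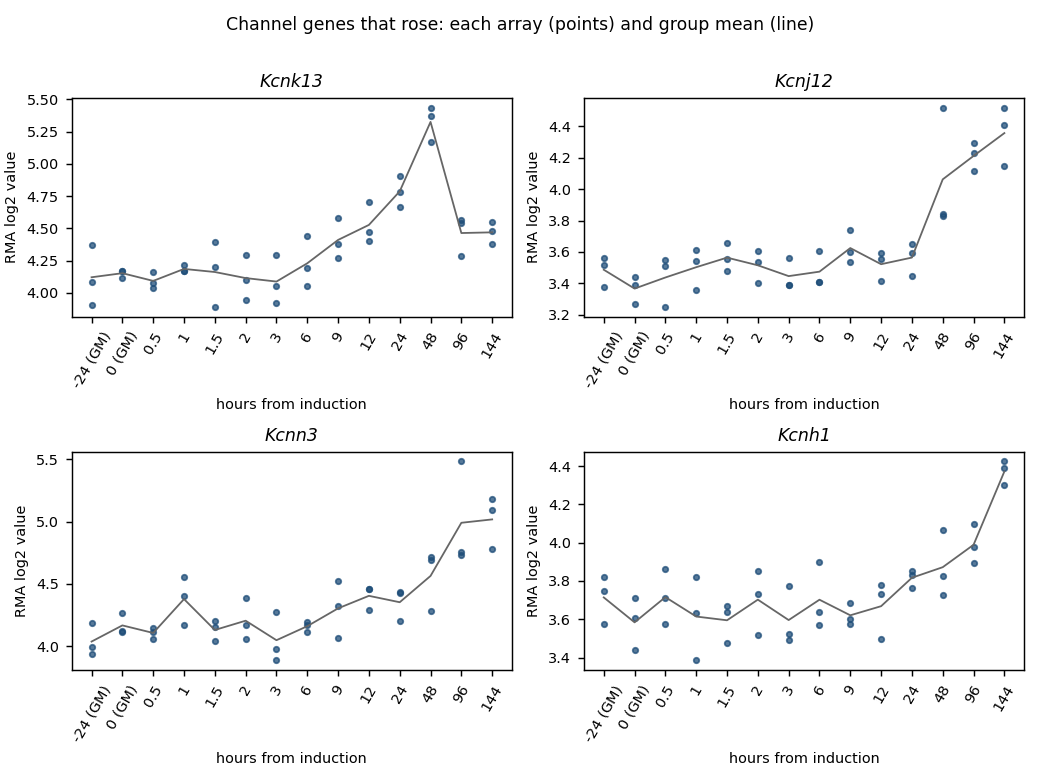
RMA log2 level on each array (points) and group mean (line) of Kcnk13, Kcnj12, Kcnn3 and Kcnh1 in the 14 untreated groups, with hours from the change of medium across at even steps; GM marks growth medium and each panel has its own level axis. Kcnk13 peaks at 48 h at a mean of 5.32, while Kcnj12, Kcnn3 and Kcnh1 have their highest means at 144 h.

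The promoters of 4 members are shown here: Kcnk13 with the largest rise and Kcnn4 with the largest fall from 0 h, Kcnj12 with the largest rise at 144 h, and Kcnf1 with the largest difference under cycloheximide. Each is the stretch of 250 bases before the transcription start given by RefSeq for GRCm38.p6, read 5′ to 3′ on the strand of the gene. Capitals mark CANNTG, the general E-box pattern, of which myogenic factors such as Myod1 and Myog bind some forms. The search did not tell these forms from others. The windows are chr12:99964249-99964498 on the plus strand for Kcnk13, chr11:61065554-61065803 on the plus strand for Kcnj12, chr7:24370013-24370262 on the plus strand for Kcnn4 and chr12:17176889-17177138 on the minus strand for Kcnf1.
Kcnk13: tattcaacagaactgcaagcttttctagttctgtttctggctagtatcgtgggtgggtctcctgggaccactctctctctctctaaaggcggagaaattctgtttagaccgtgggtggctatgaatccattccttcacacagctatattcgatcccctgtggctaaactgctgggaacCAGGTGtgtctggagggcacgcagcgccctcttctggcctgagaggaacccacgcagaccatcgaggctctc
Kcnj12: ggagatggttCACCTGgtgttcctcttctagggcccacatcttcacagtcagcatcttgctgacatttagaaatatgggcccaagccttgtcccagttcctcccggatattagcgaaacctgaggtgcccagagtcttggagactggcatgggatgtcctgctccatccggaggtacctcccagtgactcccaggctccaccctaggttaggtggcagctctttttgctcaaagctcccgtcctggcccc
Kcnn4: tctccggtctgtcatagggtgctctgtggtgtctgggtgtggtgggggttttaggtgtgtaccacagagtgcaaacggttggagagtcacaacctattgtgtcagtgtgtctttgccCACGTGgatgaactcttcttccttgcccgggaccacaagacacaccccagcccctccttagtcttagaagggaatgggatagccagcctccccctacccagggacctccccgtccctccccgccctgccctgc
Kcnf1: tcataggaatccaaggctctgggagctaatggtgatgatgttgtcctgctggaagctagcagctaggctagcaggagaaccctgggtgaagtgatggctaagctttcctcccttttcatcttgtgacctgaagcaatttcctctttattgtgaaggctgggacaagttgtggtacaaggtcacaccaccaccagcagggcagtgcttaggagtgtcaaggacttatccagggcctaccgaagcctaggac
The E-box begins 72 bases before the start in Kcnk13, 240 in Kcnj12 and 133 in Kcnn4, and the Kcnf1 window holds none. CANNTG reads the same on both strands. It occurred in 66.2% of 32851 RefSeq windows of this length and in 68.5% of the 111 windows that matched 80 of the members. Among the windows of members past the F-test, 12 of 20 held it (60%). Searched on both strands, TGANTCA occurred in 6.75% of all windows and 3.6% of member windows, and TGACGTCA in 1.55% and 0.901%. A pattern looser than the MEF2 motif, with any base allowed at its central positions, occurred in 3.2% and 2.7%. The MEF2 motif itself was not counted.

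Calcium-activated potassium channels moved in opposite directions. Kcnn3 (SK3), a small-conductance channel known in rat from denervated muscle, read 4.11, 4.26 and 4.12 at 0 h, 5.48, 4.75 and 4.73 at 96 h and 4.78, 5.09 and 5.18 at 144 h. Its arrays of 96 h and 144 h lay above all 0 h arrays. It rose by 0.40 at 48 h, 0.82 by 96 h and 0.85 by 144 h (SE 0.15 each, adjusted p = 0.0393, 2.35e-05 and 1.28e-05). The later pair of calls held without each array and under every scaling, and that of 48 h was lost without 48 h replicate 1 or 2 or 0 h replicate 1 or 3 (adjusted p up to 0.167).

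Kcnn4 encodes the intermediate-conductance channel KCa3.1, which is known from dividing cells. It read 9.60, 9.51 and 9.85 at -24 h, 8.86, 9.29 and 9.52 at 0 h, 8.09, 8.51 and 8.85 at 12 h, 7.81, 8.24 and 8.64 at 24 h, 8.64, 8.51 and 8.83 at 48 h, 8.27, 8.75 and 8.89 at 96 h, and 7.79, 8.34 and 8.59 at 144 h. The arrays of 24 h and 144 h lay below those of 0 h, and replicate 1 was the lowest of its group from 0 h to 24 h. Kcnn4 fell by 0.99 (SE 0.27, adjusted p = 0.0103) at 24 h and by 0.98 (SE 0.27, adjusted p = 0.00463) at 144 h. The first was lost without 0 h replicate 3 (-0.84, adjusted p = 0.0761) or 24 h replicate 1 (-0.78, adjusted p = 0.096). Between them, at 48 h and 96 h, the differences of -0.57 and -0.59 did not pass the test (adjusted p = 0.125 and 0.0945). A limma fit with the replicate number added as a block called both (adjusted p = 0.00024 and 0.000113). A second Kcnn4 probe set differed from 0 h by -0.89, -0.67, -0.76 and -1.01 at 24, 48, 96 and 144 h. Measured from -24 h the fall at 144 h was 1.41, one of 20 members called in that added comparison (background 34.8%). Kcnma1, the pore of the large-conductance BK channel, ranged from 3.81 to 4.09 in untreated group means and was not called. Kcnu1, placed in this family by its symbol and not by a known response to calcium or sodium, rose by 0.32 (SE 0.10, adjusted p = 0.0194) at 144 h.

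Among voltage-gated potassium subunits, Kcnh1 rose and Kcnh2 and Kcnc2 fell. Kcnh1 is EAG1, the channel named above for human myoblasts. It read 3.44, 3.61 and 3.71 at 0 h, 3.82, 4.07 and 3.73 at 48 h, 3.98, 4.10 and 3.89 at 96 h and 4.42, 4.30 and 4.39 at 144 h. The arrays of 144 h lay above all earlier ones. Its differences from 0 h were 0.29, 0.40 and 0.79 at those times (SE 0.11 each, adjusted p = 0.0494, 0.00402 and 3.69e-07), and the calls at 96 h and 144 h held without each array and under the 3 scalings. Another Kcnh1 probe set showed 0.51 at 144 h (adjusted p = 0.0208 over all probe sets).

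Kcnh2 is ERG1, which carries the rapid delayed rectifier current in heart muscle. It read 5.43, 6.04 and 6.04 at -24 h, 5.96, 6.67 and 5.91 at 0 h, 5.62, 6.47 and 6.02 at 1 h, 5.26, 5.45 and 5.09 at 3 h, 5.08, 5.39 and 5.14 at 12 h and 5.51, 5.43 and 5.61 at 144 h. From 3 h on its arrays lay below the 0 h arrays. The differences at 3 h (-0.91, SE 0.23, adjusted p = 0.0609) and 6 h (-0.91, adjusted p = 0.0536) did not pass the test, and Kcnh2 was called from 12 h (-0.98, SE 0.23, adjusted p = 0.0111) to 144 h (-0.66, adjusted p = 0.0255). Without 0 h replicate 2, its highest array, the difference at 12 h was -0.73 (adjusted p = 0.157), and the calls of 24, 48 and 144 h were lost too (0.0864 at 24 h, and up to 0.172 and 0.235 over the arrays left out). The 144 h call was also lost after a second quantile normalization (0.0732) and with housekeeping centring (0.106). At 96 h the fall of 0.88 (adjusted p = 0.00249) held without each array in turn.

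Kcnc2 (Kv3.2), a fast channel of neurons, read 3.57, 3.60 and 3.92 at -24 h, 3.98, 4.16 and 4.61 at 0 h, 3.51, 3.58 and 3.68 at 6 h, 3.39, 3.38 and 3.41 at 48 h and 3.52, 3.36 and 3.59 at 144 h. The 0 h arrays stood above those of -24 h and of 6 h and later. Kcnc2 fell by 0.66 at 6 h, by 0.85 at 48 h and by 0.76 at 144 h (SE 0.15 each, adjusted p = 0.0219, 1.91e-05 and 7.5e-05). It was not called between -24 h and 144 h, so the late fall is relative to the 0 h arrays. The neuron markers had a mean level of 6.16 at 0 h and 4.99 at 144 h; their part in the Kcnc2 values was not tested. The calls of 24 h and later held without each array and under every scaling, while that of 6 h was lost in 5 of 6 fits with 1 array left out.

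The remaining voltage-gated potassium genes moved little. Kcna4 (Kv1.4) rose by 0.35 (SE 0.10, adjusted p = 0.00862) at 48 h and Kcna7 (Kv1.7), known from muscle and heart, by 0.42 (SE 0.10, adjusted p = 0.00149) at 96 h, and both calls held without each array and under the 3 scalings. Kcnc1, Kcng1, Kcnq3 and Kcns1 were called as risen at 96 h only, by 0.38, 0.28, 0.37 and 0.31, and each call was lost without 96 h replicate 2. The untreated group means of Kcna5 ran from 2.93 to 3.18, of Kcnq5 from 3.05 to 3.27 and of Kcnc4 from 4.34 to 4.77, and none of them was called at a differentiation time.

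**Figure D4:**
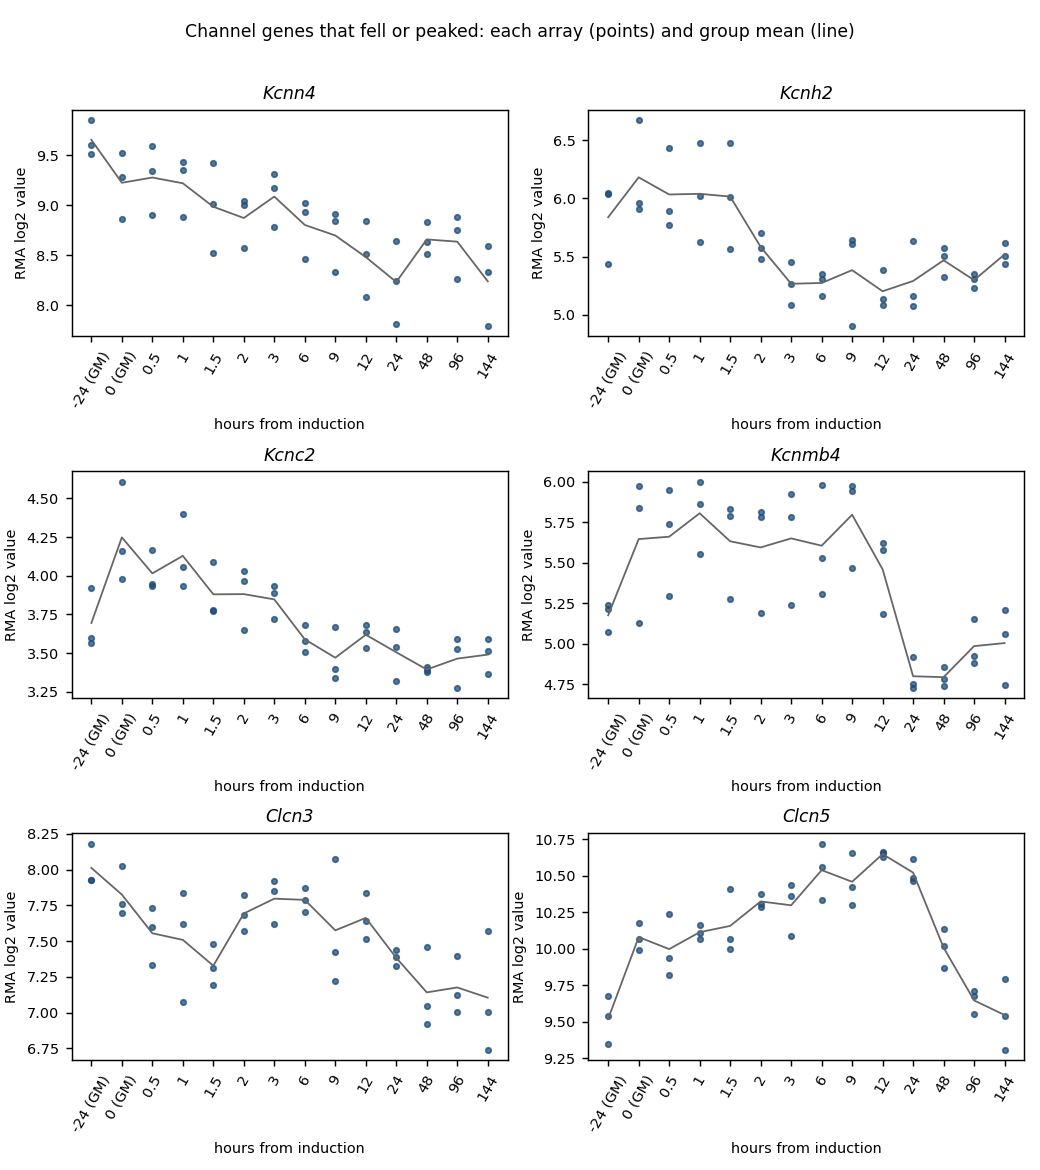
RMA log2 level on each array (points) and group mean (line) of Kcnn4, Kcnh2, Kcnc2, Kcnmb4, Clcn3 and Clcn5 in the 14 untreated groups, with hours from the change of medium across at even steps; GM marks growth medium and each panel has its own level axis. Kcnh2 points without cycloheximide lie below those of 0 h from 2 h on, although its first call is at 12 h, and Clcn5 has a mean of 10.65 at 12 h and 9.54 at 144 h.

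Auxiliary subunits assist the pores. Kcnmb4, the beta4 subunit of BK channels, read 5.24, 5.21 and 5.07 at -24 h, 5.97, 5.84 and 5.13 at 0 h, 4.75, 4.92 and 4.73 at 24 h, 4.74, 4.86 and 4.78 at 48 h and 5.06, 5.21 and 4.75 at 144 h. The 24 h and 48 h arrays lay below all 0 h arrays, while those of 144 h overlapped them. Kcnmb4 fell by 0.85 at both 24 h and 48 h (SE 0.22, adjusted p = 0.00656 and 0.00292) and by 0.66 and 0.64 at 96 h and 144 h. The 48 h call held without each array, and the others were lost without 0 h replicate 1 (adjusted p = 0.0569 at 24 h). Kcnmb4 was not called between -24 h and 144 h, so its fall at 144 h is relative to the 0 h arrays. Kcnip1, a calcium-binding partner of Kv4 channels, rose by 0.40 and 0.33 (SE 0.12 each, adjusted p = 0.0201 and 0.0366) at 24 h and 48 h, with leave-one-out values up to 0.121 and 0.186. Kcnip2 and Kcnab1 were called as risen at 96 h only, by 0.45 and 0.28, and both were lost without 96 h replicate 2. Kcne4 passed the F-test with no single time called, and Kcne3 lay between 2.91 and 3.05 and was not called.

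The chloride family moved in several ways. Clcn5, an endosomal exchanger known from kidney tubule, rose and then fell. It read 9.35, 9.54 and 9.67 at -24 h, 10.18, 9.99 and 10.07 at 0 h, 10.66, 10.62 and 10.65 at 12 h, 9.87, 10.13 and 10.02 at 48 h and 9.79, 9.54 and 9.31 at 144 h. The 12 h arrays lay above all arrays of 0 h, and those of 144 h below them. The 144 h arrays overlapped those of -24 h, so the fall from 0 h to 144 h is relative to the 0 h arrays. Clcn5 rose by 0.56 (SE 0.14, adjusted p = 0.00337) from -24 h to 0 h and by 0.57 (SE 0.14, adjusted p = 0.0133) from 0 h to 12 h. It stood 0.43 and 0.53 below 0 h at 96 h and 144 h (adjusted p = 0.0123 and 0.00228). From 12 h to 144 h it fell by 1.10 (SE 0.14, adjusted p = 5.22e-08), in a comparison added after the values were seen that called 9 members and 21.4% of all genes. The 12 h call was lost without 0 h replicate 2 (0.53, adjusted p = 0.0902), 0 h replicate 3 or 12 h replicate 3, and the calls at 96 h and 144 h with housekeeping centring (adjusted p = 0.178 and 0.115).

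Clcn3, an exchanger of endosomes and synaptic vesicles, read 7.93, 8.18 and 7.93 at -24 h, 7.69, 7.76 and 8.03 at 0 h, 7.04, 6.92 and 7.46 at 48 h, 7.40, 7.004 and 7.12 at 96 h and 7.57, 7.01 and 6.74 at 144 h. All 9 late arrays lay below the 0 h arrays. Clcn3 fell by 0.68, 0.65 and 0.72 (SE 0.19 each) at 48, 96 and 144 h, with adjusted p = 0.0061, 0.00741 and 0.00321, and by 0.91 from -24 h to 144 h. The 48 h and 96 h calls were lost without replicate 2 of their own time (adjusted p up to 0.0526 and 0.0538). The 144 h value was -0.54 without 144 h replicate 3 (adjusted p = 0.052) and -0.50 with housekeeping centring (adjusted p = 0.0591). The chosen probe set ends in _x_at, a mark of possible cross-hybridisation, and the Clcn3 probe set ending in _a_at showed -0.957, -0.9999 and -1.04 at the same times.

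Clcn7, the lysosomal exchanger that works with the partner protein Ostm1, rose by 0.36 and 0.39 (SE 0.13 each, adjusted p = 0.0383 and 0.023) at 96 h and 144 h, and its leave-one-out adjusted p reached 0.178 and 0.144. Clcn6, a late-endosomal member, was called as fallen at 144 h (-0.42, SE 0.13), but its other probe set showed 0.25 there, and the mean of the probe sets was not called (adjusted p = 0.594). Clcn1, the main chloride channel of adult muscle membranes, stayed between 4.32 and 4.55 in untreated group means, with no call at any time.

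Of the sodium channel genes, Scn3b, Scn10a, Scn2b and Scn8a rose, each by less than 1 log2 unit. Scn3b, the beta3 subunit, read 3.16, 3.09 and 3.31 at 0 h, 3.996, 3.67 and 3.59 at 96 h and 3.73, 3.68 and 3.35 at 144 h. Both late groups lay above 0 h, by 0.56 (SE 0.11, adjusted p = 0.000151) and 0.40 (SE 0.11, adjusted p = 0.0066), and both calls held without each array. A second Scn3b probe set showed 0.08 and -0.02. Scn10a, the pore of a sodium channel of sensory neurons, read 3.54, 3.71 and 3.38 at 0 h and 3.88, 4.46 and 3.82 at 96 h, a rise of 0.51 (SE 0.14, adjusted p = 0.00441) that was 0.31 without 96 h replicate 2 (adjusted p = 0.113). Its 144 h call (0.43) was lost in 3 of 6 such fits. Scn8a at 48 h and Scn2b at 96 h rose by 0.25 and 0.32, and both calls could be lost by leaving out 1 array (adjusted p up to 0.257 and 0.116).

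Within growth medium, 0 h against -24 h asks what changed as the cultures grew on without a change of medium. In the values as deposited 2 members were called, Clcn5 (above) and Kcnc2, both as risen, against 13.1% of all genes (7.26% risen). With housekeeping centring 6 members were called, all as risen, against 17.9% of all genes. Kcnc2 rose by 0.55 (SE 0.15, adjusted p = 0.00683), and by 0.49 without -24 h replicate 1 (adjusted p = 0.0599) and 0.37 without 0 h replicate 3 (adjusted p = 0.111). Between 1 and 4 members were called when single arrays were left out, 1 without -24 h replicate 1 and 4 without -24 h replicate 3 or 0 h replicate 3. In the same comparison 6 of the 9 muscle markers rose.

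Cycloheximide was compared with untreated cells of the same time, which asks how channel transcripts fare while protein synthesis is inhibited. As deposited, 29 members were higher and 1 lower at 1 h, with a background of 24.6% (24.2% and 0.418%). At 3 h, 33 were higher and 0 lower by limma, with a background of 34.4% (30.9% and 3.42%) and 1 member lower at an unadjusted p under 0.05. The median of all genes was itself higher by 0.20 at 1 h and 0.19 at 3 h on these arrays, and the members' medians were 0.17 and 0.25. After quantile normalization of all 48 arrays again, 3 members were higher and 2 lower at 1 h (background 6.78%), and 6 were higher and 5 lower at 3 h (background 24.1%). With arrays centred on their medians the split was 2 higher and 27 lower at 1 h (background 23.4%) and 4 and 31 at 3 h (44.6%). With housekeeping centring it was 2 and 5 at 1 h (7.72%) and 18 and 0 at 3 h (28.9%). The direction of the family thus turned with the scaling, and only genes called under every scaling are described as changed. As deposited, 16 members were called at 1 h without untreated 1 h replicate 2, and 19 at 3 h without untreated 3 h replicate 1.

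Kcnf1, an electrically silent subunit that alters other voltage-gated potassium channels, rose most. Its arrays read 5.04, 4.66 and 4.86 untreated at 1 h, 5.59, 5.71 and 5.55 with cycloheximide at 1 h, 4.56, 4.76 and 4.64 untreated at 3 h, and 6.91, 7.21 and 6.46 with cycloheximide at 3 h. The drug arrays lay above the untreated arrays at both times. The difference at 3 h was 2.20 (SE 0.19, adjusted p = 3.81e-12), a 4.61-fold rise, called without each array and under all scalings, and a second probe set showed 3.32. The difference at 1 h, 0.76 (SE 0.19, adjusted p = 0.00263), was not called after the other 3 scalings. Kcnf1 was not called at any differentiation time without the drug.

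In the chloride family, Clcn6 read 6.20, 6.22 and 5.94 untreated and 7.32, 7.31 and 7.08 with cycloheximide at 3 h. Clcn2, a chloride channel of the plasma membrane, read 3.77, 3.73 and 3.36 untreated and 4.77, 4.72 and 4.32 with the drug. The drug arrays of both genes lay above their untreated arrays. Clcn6 rose by 0.74 at 1 h and 1.11 at 3 h (SE 0.13 each, adjusted p = 4.43e-05 and 5.48e-09), and Clcn2 by 0.98 (SE 0.15, adjusted p = 3.12e-06) at 3 h. The two-pore gene Kcnk7 rose by 0.75 (SE 0.13, adjusted p = 1.71e-05) at 3 h, from 3.70, 4.03 and 4.08 to 4.65, 4.68 and 4.74, and the inward rectifier Kcnj4 by 0.77 (SE 0.11, adjusted p = 4.45e-06) at 1 h, from 3.90, 3.83 and 4.02 to 4.63, 4.84 and 4.58. These calls held without each array and under the 3 other scalings. Kcnmb1, the beta1 subunit of BK channels, was called as lower at 1 h under every scaling (-0.27 as deposited, SE 0.10), and the call was lost without untreated 1 h replicate 1 or 2 or cycloheximide replicate 1 or 3 (adjusted p up to 0.251).

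The change in the cycloheximide effect between 1 h and 3 h was called for 1 member, Kcnf1 (1.44, SE 0.26, adjusted p = 0.000369), and for 4.29% of all genes (2.65% larger). With housekeeping centring 6 members were called (Clcn6, Kcnab3, Kcnf1, Kcnh7, Kcnmb4os2 and Kcnt2), against 8.49% of all genes. The Kcnf1 value ranged from 1.27 to 1.64 over the 12 fits that left out 1 array each.

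**Figure D5:**
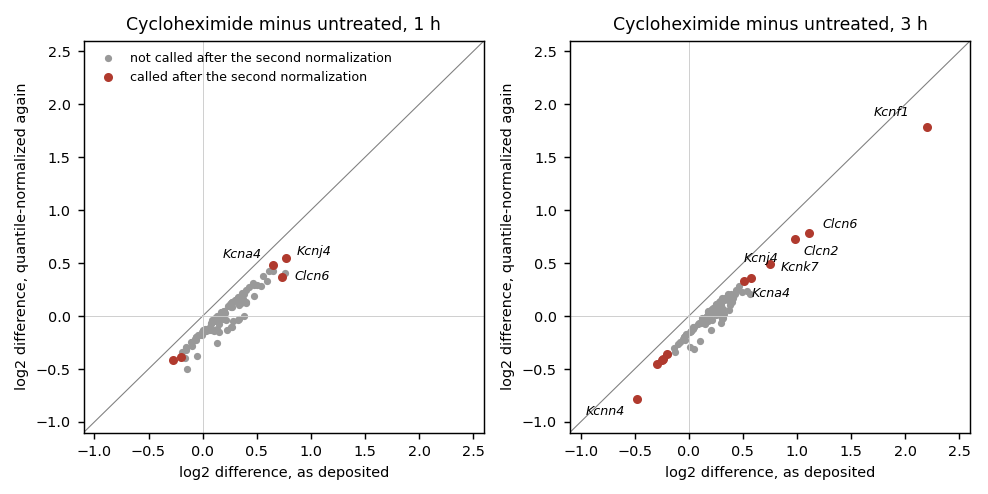
Cycloheximide minus untreated log2 difference of each of the 102 channel genes as deposited (across) and after quantile normalization of all arrays again (up), at 1 h and at 3 h; red points were called after the second normalization, and the unlabelled red points at the lower left are Kcnk16 and Kcnmb1 at 1 h and Kcnj1, Kcnk16, Kcnq1ot1 and Kcns2 at 3 h. Nearly all points lie below the line of equality, and Kcnf1, Clcn6, Clcn2 and Kcnk7 stay apart on the right at 3 h.

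Genes that work beside these channels were counted in the same way at 144 h, where 13.5% of all genes had risen and 14.9% had fallen. Of 22 voltage-gated calcium channel genes 8 had risen and 0 had fallen by limma (0 fallen also at an unadjusted p under 0.05), with a median difference of 0.24 against 0.04 over all genes. Cacna1s, the pore of the muscle calcium channel that triggers contraction, rose by 4.81 (SE 0.27), its subunit Cacnb1 by 3.90 (SE 0.34), and Cacna2d2 by 2.66 (SE 0.17). Of 6 sodium pump genes, 4 had risen and 0 had fallen (0 also at an unadjusted p under 0.05), namely the beta subunits Atp1b1 (0.68), Atp1b2 (0.77) and Atp1b3 (0.52) and the regulator Fxyd1 (2.20). Of 18 channel partners and anchors, 4 had risen and 1 had fallen, a share called close to that of all genes. With housekeeping centring the calcium channel counts were 15 risen and 0 fallen, the sodium pump counts 4 and 0, and the partner counts 11 and 1, while 38.9% of all genes were higher and 9.48% lower. Ostm1, the Clcn7 partner, rose by 0.62 (SE 0.13, adjusted p = 0.000255). Fgf13, a cytosolic partner of sodium channels, rose by 3.47 (SE 0.17, adjusted p = 1.07e-18) from a level of 3.07 to 6.54. Nedd4, a ubiquitin ligase that acts on sodium channels, fell by 0.81 (SE 0.14).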

How the data were processed

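RNA of 48 samples in 16 groups of 3 was read on Affymetrix MOE430v2 arrays. The authors deposited log2 values made with RMA, per the submitters' processing notes; its version, and whether all arrays were run together, are not given in the sources used here. Total RNA was extracted with Trizol, and biotinylated cRNA was made from 5 µg, per the labels' protocols.

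The values were used as deposited. Of 45101 probe sets, 64 were controls, 932 had several gene symbols and 9160 none in GEO's platform annotation; the other 34945 covered 18193 genes, each represented by its probe set of highest mean. For 59 of the 102 channel genes more than 1 probe set existed, and 2 chosen sets (Clcn3 and Clcn5) end in _x_at. For members called at 96 h, 21 of 28 other probe sets had the same sign and 7 were called in that direction. The counts at 144 h were 12 and 5 of 16, at 48 h 13 and 4 of 14, and at 24 h 8 and 2 of 8. At each of these times 0 were called in the opposite direction. A model with a mean for each group was fitted to the 48 arrays with limma 3.58.1 in R 4.3.3 (32 residual degrees of freedom, eBayes at default settings), all tests two-sided, with Benjamini-Hochberg adjustment over 18193 genes within a comparison. The fit was tested on simulated data.

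The members and lists were chosen with earlier results of these data known. The genes named are those past the F-test or called with a difference of 1 or more, 15 of 19 listed channel genes that are members, and called members of each family; per-array values of others than Kcnk13 were picked after the values were seen. The alternatives were a second quantile normalization, centring on array medians or on housekeeping genes, trend and robust eBayes, the replicate number as a block, the mean of probe sets, probe sets without _s_at, _x_at and _a_at, a filter on dim genes, only the arrays compared, and each array left out; housekeeping centring of the related gene lists and the block for Kcnn4 were added after the data were seen. The p-values measure the spread between growths of successive passages of 1 line. The main fit has no term for the replicate number, so spread shared by same-numbered arrays stays in its p-values. Promoters came from RefSeq (GRCm38.p6), for 80 of the 102 genes.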

Additional observations from a re-analysis of the deposited data

Results flagged for a closer look

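The cycloheximide effect on Kcnf1 differed between the times: the difference from untreated cells was 0.76 at 1 h and 2.20 at 3 h, and the test of the change itself gave 1.44 on the log2 scale (SE 0.26, limma adjusted p = 0.000369 over 18193 genes). All 3 drug arrays lay above the untreated arrays at both times. The value was 1.38 after a second quantile normalization, 1.41 with arrays centred on their medians and 1.68 with housekeeping centring, and each was called. Drug arrays had medians of 4.20 to 4.24 and the others 4.003 to 4.16.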

How the results depend on the processing

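Of the counts of channel genes, the F-test count of 16 became 52 with housekeeping centring and 26 with the replicate block. With housekeeping centring the counts at 24, 48, 96 and 144 h were 27, 20, 56 and 51, with 6 for 0 h against -24 h, 7 and 18 for cycloheximide at 1 h and 3 h, and 6 for the change in its effect. A second quantile normalization gave 5 and 11 for cycloheximide. With only the arrays compared, 7, 10, 8 and 16 were called at 48 h, 96 h, 144 h and for cycloheximide at 1 h, where fewer arrays estimate the spread. Without _s_at, _x_at and _a_at probe sets 4 were called at 24 h, where 948 of all genes had risen and 1104 had fallen. The filter on dim genes gave 19 for cycloheximide at 1 h, where 3660 of all genes kept were higher and 58 lower. The mean of probe sets gave 50 for cycloheximide at 3 h, where 6591 of all genes were higher and 579 lower. Shares of all genes are not given here for the block F-test, for only the arrays compared or for single arrays left out. Leaving out single arrays gave 13 to 20 for the F-test, 1 to 3 for 0.5 h to 12 h, 4 to 8, 7 to 12, 11 to 24 and 12 to 16 at 24, 48, 96 and 144 h, 1 to 4 for 0 h against -24 h, 16 to 26 and 19 to 35 for cycloheximide at 1 h and 3 h, and 1 to 1 for the change in its effect. Of the members called with cycloheximide, 11 of 30 at 1 h and 23 of 33 at 3 h turned direction under at least 1 of the 3 other scalings, Kcna7 among them at both times; the members called at 24 h or later kept theirs.

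With replicate number as a block, 5 members were called for 0 h against -24 h, where 1953 of all genes had risen and 1538 had fallen. For the change in cycloheximide effect the block called 2 members, where the effect on all genes was called larger for 714 and smaller for 603. Without the block these comparisons called 2 and 1 members, and 2388 and 780 of all genes in either direction. Same-numbered arrays correlated after removal of group means (median 0.31, range -0.46 to 0.74, 300 of 360 pairs over 0.1), and 44 of 48 arrays were closest to their own number. This is a hint that a number marks the same passage across groups. The design gives successive passages for the triplicates, but the labels do not tie the numbers to them. The block ended no call of a member, and with it Kcnn4 was called at 48 h and 96 h as well (adjusted p = 0.00024 and 0.000113). At 6 h the block called 192 of all genes as risen and 273 as fallen, against 92 in either direction without it. Arrays per group and dim probe sets limit what small differences can show: 46 members never had a group mean above the median of all probe sets.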

Other observations

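Of 18 other anion channel genes, 3 had risen and 8 had fallen at 144 h by limma, against 13.5% and 14.9% of all genes. With housekeeping centring, which moved the median of all genes by 0.22, the counts were 5 and 3, and Ano1, Clic4, Lrrc8c, Lrrc8d and Lrrc8e were no longer called. The risers were Clic3 (2.30, SE 0.19), Clic5 (0.48, SE 0.12) and Best1 (2.21, SE 0.28). The chloride channel proteins Clic1 and Clic4 fell by 0.94 (SE 0.14) and 0.37 (SE 0.10), the volume-regulated channel subunits Lrrc8c, Lrrc8d and Lrrc8e by 0.45, 0.52 and 0.54 (SE 0.16, 0.16 and 0.17), the anoctamins Ano1 and Ano6 by 0.43 and 0.55 (SE 0.15 and 0.12), and Ttyh3 by 1.10 (SE 0.14).

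Of 13 other cation channel genes, 1 had risen and 3 had fallen at 144 h, and with housekeeping centring 2 were higher and 1 (Trpm7) lower. Orai1, the pore of store-operated calcium entry, rose by 1.95 (SE 0.34) from a mean of 6.05 to 7.996. Trpc1, Trpm7 and the mechanically gated channel Piezo1 fell by 0.39 (SE 0.14), 1.37 (SE 0.41) and 0.49 (SE 0.16), with an SD of 1.12 among the 144 h arrays of Trpm7.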
